A study of Rattus norvegicus with 66 samples.

Results

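The 9 genes of neuropeptide signalling described here were Avp, Oxt, Avpr1a, Oxtr, Penk, Pdyn, Tac1, Gal and Trh. They were found by their symbols among 37777 genes, and each symbol stood in exactly 1 entry. The genes were selected on the measured counts, because Avp was high in female pups of the BPA5 group, so the values of that group against controls are a description without a test. RNA of dorsal hippocampus with a small part of laterally adjacent neocortex was sequenced from 64 Long Evans pups on PND 6, 41 males and 23 females from 44 litters.

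The dams received the chemicals and the pups were exposed through them. Aroclor 1254, a mixture of polychlorinated biphenyls, and bisphenol A were mixed into soy-free chow from before mating onwards, at 5 mg/kg (Aro5, BPA5) or 0.5 mg/kg (Aro0.5, BPA0.5). Chlorpyrifos, an organophosphate insecticide, was injected subcutaneously at 3 mg/kg (CPF3) or 1 mg/kg (CPF1). Feeding controls (CONF) had the same soy-free chow, which all Aroclor and bisphenol groups share. Injection controls (CONSC) received vehicle alone, given as saline in the labels and as dimethyl sulfoxide in the study's methods. The groups were 4 CONF, 5 CONSC, 4 Aro0.5, 4 BPA0.5, 4 CPF1, 6 Aro5, 7 BPA5 and 7 CPF3 males, and 5 CONF, 5 CONSC, 5 Aro5, 4 BPA5 and 4 CPF3 females. CONF and CONSC were combined as controls within each sex, giving 9 male and 10 female controls that all treated groups of that sex share. All high-dose male libraries had another form of library name (form B) than most control male libraries (form A). Treatment and whatever the name form stands for therefore cannot be fully told apart in males. In Aro5, BPA5 and CPF3 females the form could not be read, so sex and name form may also coincide in treated litters.

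Vasopressin (Avp) and oxytocin (Oxt) are made by neurosecretory neurons of the hypothalamus, which send the hormones to the posterior pituitary and the peptides to other brain areas. In the hippocampus their signals are read by receptors such as the vasopressin V1a receptor (Avpr1a) and the oxytocin receptor (Oxtr), whereas the peptide genes themselves are hardly transcribed there. Penk, Pdyn and Tac1 encode the precursors of enkephalins, dynorphins and substance P, and are strongly transcribed in medium spiny neurons of the striatum. Gal encodes galanin, and Trh encodes the precursor of thyrotropin-releasing hormone, the hypothalamic peptide that drives the thyroid axis.

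Avp and Oxt are direct neighbours on rat chromosome 3, with 0 annotated genes between them, and lie on opposite strands. The 250 bases before their transcription starts are shown because both genes were high in the same few pups, and those of Pdyn and Tac1 because these genes varied together across pups. All are RefSeq sequences of build GRCr8 on the strand of the gene, 5′ to 3′, and RefSeq held a promoter for 8 of the 9 genes. Capitals mark a nuclear receptor half-site (GGTCA, or TGACC on the other strand), an E-box (CACGTG) or a cyclic AMP response half-site (TGACG, or CGTCA on the other strand). No match overlapped another.
Avp, chr3:138248523-138248772, minus strand: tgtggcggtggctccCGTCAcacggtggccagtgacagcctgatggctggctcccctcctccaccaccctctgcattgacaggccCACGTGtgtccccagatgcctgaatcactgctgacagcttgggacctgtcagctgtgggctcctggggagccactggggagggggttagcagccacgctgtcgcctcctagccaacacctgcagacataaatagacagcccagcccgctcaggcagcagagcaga
Oxt, chr3:138235504-138235753, plus strand: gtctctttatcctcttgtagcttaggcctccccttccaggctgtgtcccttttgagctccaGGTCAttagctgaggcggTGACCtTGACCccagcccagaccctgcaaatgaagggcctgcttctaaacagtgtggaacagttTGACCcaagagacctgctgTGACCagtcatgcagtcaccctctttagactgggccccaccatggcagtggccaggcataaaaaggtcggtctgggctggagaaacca
Pdyn, chr3:137366504-137366753, minus strand: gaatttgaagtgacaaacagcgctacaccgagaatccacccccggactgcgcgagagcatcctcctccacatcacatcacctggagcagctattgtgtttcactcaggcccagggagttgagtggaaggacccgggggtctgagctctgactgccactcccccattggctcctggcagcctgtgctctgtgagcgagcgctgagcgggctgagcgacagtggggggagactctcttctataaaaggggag
Tac1, chr4:36645333-36645582, plus strand: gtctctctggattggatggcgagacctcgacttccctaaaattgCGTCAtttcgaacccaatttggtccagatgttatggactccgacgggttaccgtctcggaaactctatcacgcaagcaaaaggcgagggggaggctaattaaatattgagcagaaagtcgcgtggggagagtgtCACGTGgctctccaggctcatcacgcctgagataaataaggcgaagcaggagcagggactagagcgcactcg

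The Oxt window held 5 nuclear receptor half-sites, and the Avp window held 0. At least 1 such match stood in 35.4% of 33469 rat promoter windows of the same length, and 5 or more stood in 0.0508% of them. Avp and Tac1 each held 1 E-box, which 5.59% of all windows held, and 1 cyclic AMP response half-site, which 18.2% held. The Pdyn window held none of the 3 motifs. A match describes letters only, and no binding was measured.

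Library totals ranged from 10644138 to 86206550 counts with a median of 20740650, and levels are given as CPM, that is counts divided by the library total and multiplied by 1000000. Avp and Oxt were near the limit of detection. Avp had a median of 5 counts per pup and reached 10 counts in 21 of 64 pups, with 0 counts in 2 pups. Oxt had a median of 4 counts, reached 10 counts in 19 pups, and had 0 counts in 8. The other genes had at least 10 counts in every pup, from a median of 29 counts for Gal to 1669 for Penk.

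Markers of the labelled tissue were present. Of 8 hippocampus markers listed for the check, 7 were detected in all 64 pups, and Fibcd1 had 0 counts throughout. Of 11 hypothalamus markers, 4 transcription factors were at 0 in many pups, namely Otp in 32, Hmx3 in 43, Nkx2-4 in 40 and Rax in 53. Others were detected in most pups. Sim1 was at 0 in 10 pups and reached 43 counts (median 4), Fezf1 was at 0 in 2 and reached 51 counts (median 7.5), and Pomc (median 14 counts) and Pmch (median 10.5 counts) were at 0 in 1 pup each. Pmch reached 690 counts, or 20.7 CPM, in CONF female N2-4x. Nkx2-1, which is also expressed by telencephalic interneuron progenitors, had a median of 7.78 CPM, and the summed list ranged from 3.49 to 33.3 CPM. In RNA of a whole dissected piece, fewer cells of a type and less RNA per cell cannot be told apart.

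Avp stood above every control of the same sex in a few pups of several groups. Among female controls Avp had 3 to 28 counts, from 0.195 to 0.839 CPM with a median of 0.492 CPM. The 4 BPA5 females had 10, 29, 35 and 87 counts, or 0.578, 0.943, 1.37 and 6.46 CPM. Of these 4 pups, 3 lay above every female control, and 1 lay within the control range. The log2 fold change of BPA5 females was 2.25 (n = 4 and 10), and it was 1.06 without female 79-4x, the pup with 6.46 CPM. This pup was dissected at 10.29, just before the dissection window of 10.30 to 13.20. In all, 11 of the 66 libraries lay outside the window, in several groups. Its sum of thalamus markers, 1194 CPM, was above every female control (405 to 1011 CPM). Its sum of choroid plexus markers, 749 CPM, was below them all (1569 to 4490 CPM). So was its sum of striatum and amygdala markers, 85.5 CPM (147 to 1109 CPM). The part of these tissues in the Avp value was not tested.

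Oxt in BPA5 females had 4, 35, 45 and 68 counts, or 0.231, 2.60, 1.76 and 2.21 CPM in pups 91-9x, 79-4x, 81-6x and 85-4x. The 10 female controls ranged from 0 to 1.80 CPM with a median of 0.158 CPM, so 2 of the 4 treated pups stood above every control. The log2 fold change was 1.91, and it was 1.67 to 2.54 over refits without 1 pup. Across the genes of this comparison 0% of 16992 passed the test, and of the 9 genes 5 were higher and 4 lower, with a median log2 fold change of 0.15. The log2 fold changes of the receptors were 0.20 for Avpr1a and 0.39 for Oxtr.

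**Figure D1:**
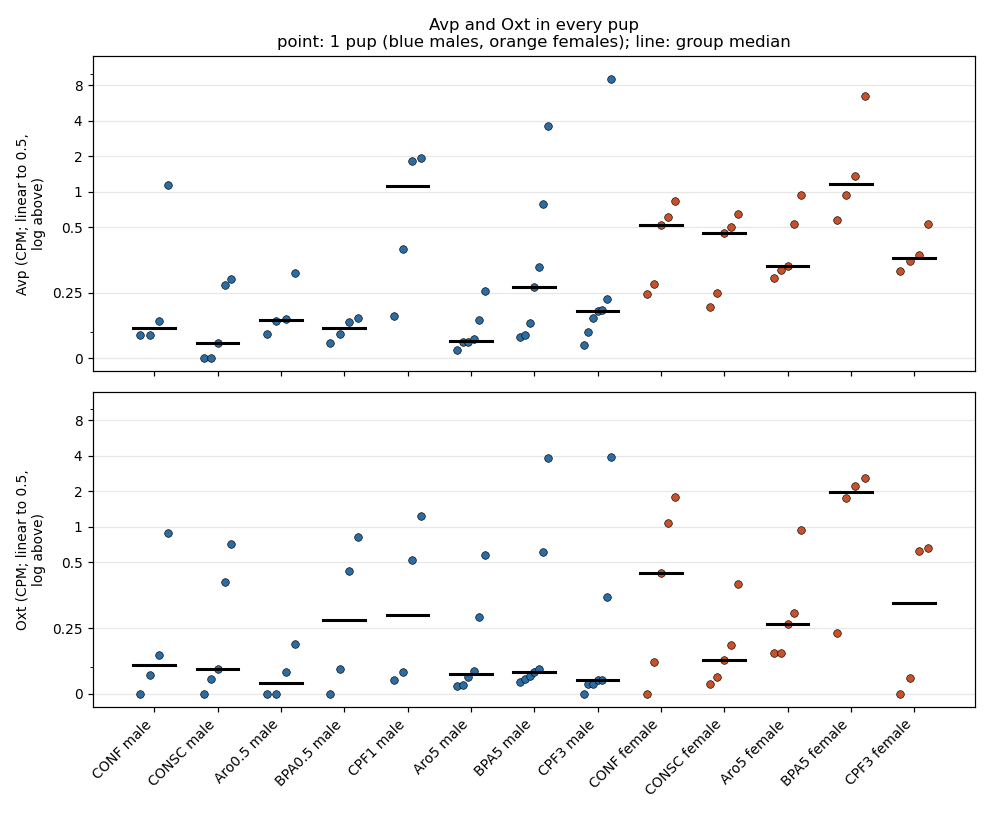
Levels of Avp (top) and Oxt (bottom) in CPM for each of 64 pups in 13 groups, on an axis that is linear up to 0.5 CPM and logarithmic above. Points are pups and lines are group medians. Most pups lay under 1 CPM, and CPF3 male 36-3y, BPA5 female 79-4x and BPA5 male 80-1y had the highest Avp at 8.97, 6.46 and 3.57 CPM.

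Among males, Avp was at most 1.14 CPM in the 9 controls, with a median of 0.0884 CPM, and 8 of the 9 were at or below 0.304 CPM. Of 7 CPF3 males, 6 had 1 to 6 counts (0.0511 to 0.227 CPM), whereas male 36-3y had 174 counts (8.97 CPM). Of 7 BPA5 males, 6 had 1 to 23 counts (0.0811 to 0.783 CPM), whereas male 80-1y had 107 counts (3.57 CPM). In both groups 1 pup stood apart and the others overlapped the controls. The 4 CPF1 males had 2, 8, 28 and 26 counts, or 0.161, 0.416, 1.83 and 1.94 CPM, so that 2 of 4 exceeded the highest control. The 6 Aro5 males had 1 to 9 counts (0.0329 to 0.257 CPM), and the 4 Aro0.5 and 4 BPA0.5 males had 1 to 8 counts. None of these 14 pups exceeded the highest control.

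The filter on low counts removed Avp from every comparison among males. Exact two-sided permutation tests of mean log2(CPM + 0.1) were used in its place, a choice made after the values were seen, and 11 such tests were made for Avp and Oxt in all. Avp in CPF1 males differed from controls by 1.83 (n = 4 and 9, exact permutation p = 0.0336, unadjusted), and by 1.00 with a pseudocount of 0.5 (exact permutation p = 0.0392). Avp differed by 0.94 in BPA5 males (exact p = 0.191, n = 7 and 9) and by 0.76 in CPF3 males (exact p = 0.414, n = 7 and 9). The differences of Aro5, Aro0.5 and BPA0.5 males lay between -0.31 and 0.15, with exact permutation p from 0.597 to 0.845. When all genes with at least 1 count were fitted in edgeR, the log2 fold change of Avp was 2.71 in CPF3 males and -0.43 without male 36-3y. It was 1.94 in BPA5 males and 0.54 without male 80-1y. In CPF1 males it was 2.33 ± 0.60 (SE), with an adjusted p of 0.942 in edgeR, and 1.94 or 1.93 without either of the 2 high pups.

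Oxt was also high in both of the males that stood apart for Avp. In CPF3 male 36-3y it had 76 counts (3.92 CPM) while the other 6 ranged from 0 to 0.369 CPM. In BPA5 male 80-1y it had 114 counts (3.80 CPM) while the other 6 ranged from 0.0449 to 0.613 CPM. Male controls ranged from 0 to 0.894 CPM with a median of 0.0928 CPM. The log2 fold change of Oxt was 1.47 ± 1.01 (SE) in BPA5 males and 1.24 ± 1.06 in CPF3 males, with edgeR adjusted p of 0.646 and 0.632. Without filter and without the high pup these values turned to -0.60 in BPA5 and -1.28 in CPF3 males. In Aro5 males the log2 fold change of Oxt was -0.57 ± 1.29 (edgeR adjusted p = 0.909). It ranged from -1.47 to -0.32 over refits without 1 pup in which Oxt passed the filter.

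The low-dose males gave Oxt levels of 0 to 0.188 CPM in Aro0.5, 0 to 0.823 CPM in BPA0.5 and 0.052 to 1.24 CPM in CPF1. All 3 ranges overlapped the controls. The log2 fold changes were -1.73 ± 1.06, 0.47 ± 0.86 and 0.81 ± 0.84 (SE), with edgeR adjusted p of 0.369, 0.928 and 0.997. The sign in BPA0.5 and CPF1 changed to -0.17 and -0.36 when males 73-4y and 60-6y were left out. In Aro0.5 the value ranged from -3.03 to -1.35 over refits without 1 pup in which Oxt passed the filter.

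In Aro5 and CPF3 females both peptides remained within or close to the control range. Avp was 0.307 to 0.942 CPM in 5 Aro5 females and 0.334 to 0.535 CPM in 4 CPF3 females, and Oxt was 0.153 to 0.942 and 0 to 0.668 CPM. One Aro5 female, 116-1x, exceeded the highest control in Avp. The log2 fold changes of Avp were 0.09 ± 0.48 and -0.16 ± 0.54, and those of Oxt -0.34 ± 0.79 and -0.70 ± 0.93 (SE). Each of these signs turned in a fit with other controls. The smallest edgeR adjusted p for these genes was 0.852, for Oxt in CPF3 females.

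Ordered by group mean, Avp was highest in BPA5 females (2.34 ± 2.77 CPM, SD, n = 4), followed by CPF3 males (1.41 ± 3.34, n = 7), CPF1 males (1.09 ± 0.93, n = 4) and BPA5 males (0.754 ± 1.27, n = 7). Aro5 males were lowest at 0.105 ± 0.0835 CPM (n = 6). Oxt was highest in BPA5 females at 1.70 ± 1.04 CPM and lowest in Aro0.5 males at 0.0671 ± 0.0889 CPM. In none of the 12 steps between neighbours in the order of the 13 groups did the difference exceed the larger SD, for any of the 9 genes.

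Avp and Oxt varied together within groups. After subtraction of group means of log2 CPM (prior count of 2), Pearson's r between them was 0.75 and Spearman's rho 0.71 over 64 pups, and r was 0.64 without the 2 pups farthest from the median of Oxt. Within subsets r was 0.69 in 20 males of 1 name form, 0.87 in 20 males of the other form and 0.63 in 23 females, leaving out CONF male N2-2y, which had a library of each form. The 6 pups with most Avp all ranked within the first 17 of 64 for Oxt. Both genes also rose with the summed hypothalamus markers, with r of 0.57 for Avp and 0.69 for Oxt. Within the subsets above this r was 0.81, 0.63 and 0.38 for Avp and 0.68, 0.73 and 0.66 for Oxt. CONSC female 9-1x and CONF female N2-4x had the highest hypothalamus sums, 33.3 CPM each, with 0.479 and 0.839 CPM of Avp. With the sum of GABAergic markers (Gad1, Gad2, Slc32a1, Lhx6, Sst and Vip) r was 0.40 for Avp and 0.49 for Oxt. With hippocampus markers it was -0.41 and -0.39, and with neocortex markers -0.43 and -0.45. The 6 pups with most Avp were compared for Sim1, Otp and Pmch, whose medians over all pups were 4, 0.5 and 10.5 counts. CPF3 male 36-3y had 27, 13 and 86 counts of these genes, BPA5 female 79-4x had 14, 13 and 85, and BPA5 male 80-1y had 30, 11 and 255. CPF1 males 63-5y and 60-6y had 7, 0 and 91 and 14, 3 and 114 counts, and BPA5 female 81-6x had 5, 14 and 20. Over all 11 hypothalamus markers, Sim1, Pmch and Fezf1 were above their medians in all 6 pups, and Otp and Hmx3 in 5. Hcrt, Pomc and Agrp were above in 4, Nkx2-1 and Nkx2-4 in 3, and Rax was at 0 in all 6. Nkx2-1, with a median of 158 counts, had 102 and 45 counts in the 2 pups with most Avp. The part of adjacent tissue in the Avp and Oxt values was not tested further. These pups share tissue, libraries and depth with the marker values, and the correlations are a description.

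**Figure D2:**
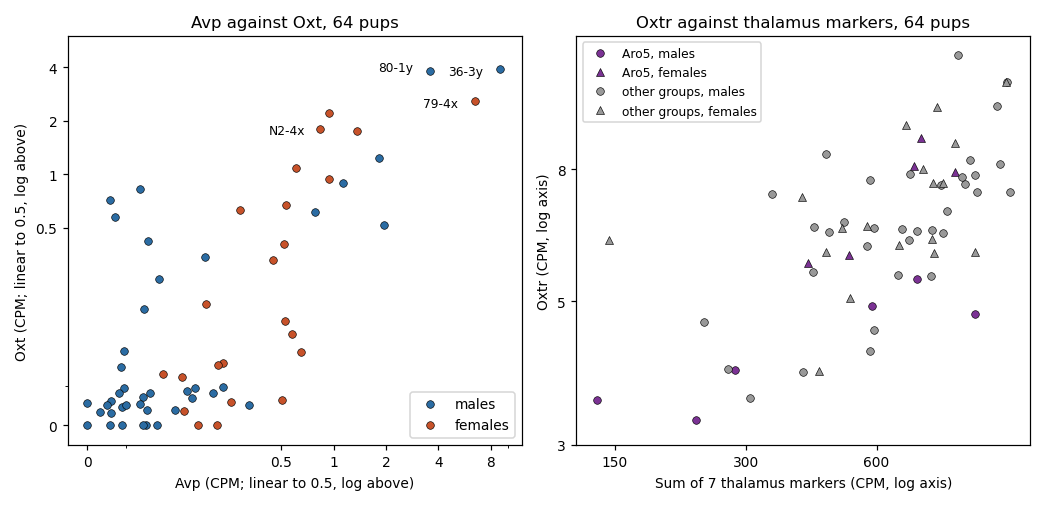
Left, Oxt against Avp in 64 pups (CPM, axes linear to 0.5 and logarithmic above), males in blue and females in orange. Right, Oxtr against the sum of 7 thalamus markers (CPM, log axes), with Aro5 pups in purple, circles for males and triangles for females. The 3 pups with most Avp also had the most Oxt, whereas CPF1 male 63-5y had 1.94 CPM of Avp and 0.521 CPM of Oxt. On the right, 3 of 6 Aro5 males combined low Oxtr with thalamus sums of 136 to 283 CPM.

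Avp was higher in females than in their male littermates in nearly all litters, also outside the BPA5 group. In 15 litters with both sexes, BPA5 litters left out, females had more Avp in 14 litters, by 1.23 ± 0.85 (SD over litters) on the scale of log2(CPM + 0.1) and by 0.55 with a pseudocount of 0.5. An exact two-sided sign-flip permutation test over litters gave p = 0.0003662 for Avp, unadjusted. All 9 genes were tested in this way, a choice made after the values were seen. In the same 15 litters, 9.86% of 16009 genes were higher in females in at least 14 litters, and 9.93% were higher in males in at least 14 litters. A difference of this regularity was thus common among these genes, which had at least 10 counts in at least 32 pups. Avp, with 10 counts or more in 21 of 64 pups, was not among them. The share among genes with as few counts as Avp was not counted. The single exception for Avp was litter N4, where the CONF male had 1.14 CPM and the female, N4-3x, 0.522 CPM. The value of N4-3x sums 2 libraries, with 0.695 and 0.227 CPM, whose labels give different dissection times, 12.09 and 11.55.

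In the 8 Aro5 and CPF3 litters Avp was higher in the female in 8 of 8, by 1.36 ± 0.63 (SD). In 7 control litters it was higher in 6, by 1.07 ± 1.08 (exact permutation p = 0.0625). In the 2 control litters whose libraries all had 1 name form it was higher in the female of both, by 1.01 ± 0.17, where the smallest p an exact permutation test allows is 0.5. In the 3 BPA5 litters the females had 6.46, 1.37 and 0.578 CPM and their brothers 0.0897, 0.349 and 0.136 CPM. Oxt was higher in the female in 10 of 15 litters without BPA5, by 0.63 ± 1.58 (exact permutation p = 0.143), which is within the spread between litters. It was higher in the female in 7 of the 8 Aro5 and CPF3 litters, by 0.79 ± 0.83 (exact permutation p = 0.0234, unadjusted), and in 3 of the 7 control litters (0.45 ± 2.22, exact permutation p = 0.594). Oxtr was likewise higher in the female in 7 of the 8 treated litters, by 0.56 ± 0.48 (exact permutation p = 0.0234, unadjusted), and in 2 of the 7 control litters (-0.16 ± 0.33, exact permutation p = 0.328). The difference between treated and control litters was not tested. How many of all genes reached 7 or 8 of 8 litters, or 11 of 15 litters, was not counted. These counts are therefore a description. In the 7 control litters, 9.98% of the same 16009 genes were higher in the female of every litter and 8.75% in the male of every litter. Gal was higher in the female in 11 of the 15 litters, by 0.50 ± 0.68 (exact permutation p = 0.0117, unadjusted), and Tac1 was higher in the male in 11, by a mean log2 difference of -0.52 ± 0.87 for female minus male (exact permutation p = 0.038, unadjusted).

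Among controls alone, male and female libraries differed in 30.9% of 15763 genes in edgeR, and 0 of the 7 genes of the 9 that passed the filter were among them. One of the 7 had an unadjusted p below 0.05, and of the same 7 DESeq2 also called 0 and gave 1. This gene was Gal, with 0.76 to 2.00 CPM (median 1.38) in 9 males and 1.14 to 1.94 CPM (median 1.69) in 10 females. Its log2 difference of males from females was -0.40 ± 0.17 (SE), with an edgeR adjusted p of 0.0807, and the ranges overlapped. Avp gave a difference of -1.12 and Oxt of -0.39 between control males and females in exact permutation tests on log2(CPM + 0.1) (p = 0.0149 and 0.523, n = 9 and 10, unadjusted). With a pseudocount of 0.5 the difference of Avp was -0.46 (exact permutation p = 0.0340). These tests ignored litters, and the exact sign-flip permutation test over the 7 control litters gave p = 0.0625 for Avp. Total counts also differed, with medians of 13162809 in CONF and 16449170 in CONSC males against 32882425 and 28071415 in females. In Aro5 and CPF3 the medians were 29111441 and 19967593 in males against 25648355 and 18707090 in females. The part of depth in the Avp differences was not tested.

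Further genes of peptide signalling were called between control males and females, at a share below that of all genes. Of 86 further genes, that is precursors, receptors and processing enzymes, 60 were tested, and edgeR called 2 higher and 14 lower in males, with a median log2 difference of -0.09 against 0.02 for all genes. The share called was 26.7% against 30.9% of all genes, and the share with an unadjusted p below 0.05 was 31.7% against 40.8%. The precursors Pomc (-1.37 ± 0.22), Nppc (-0.94 ± 0.21), Cck (-0.85 ± 0.23), Vgf (-0.77 ± 0.19), Cort (-0.74 ± 0.22), Tac3 (-0.57 ± 0.20), Chga (-0.49 ± 0.09) and Sst (-0.39 ± 0.09) were lower in males. So were the receptors Mchr1 (-0.39 ± 0.13) and Crhr1 (-0.27 ± 0.10) and the enzymes Thop1, Pcsk2, Ece1 and Prep (-0.56 to -0.20). Adcyap1r1 (0.19 ± 0.04), the PACAP receptor, and Cpe (0.17 ± 0.06), the carboxypeptidase that trims peptide precursors, were higher. All had edgeR adjusted p of at most 0.04. With libraries of 1 name form alone, 1847 genes in place of 4865 passed, in a fit that also had fewer female control libraries.

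Of Avpr1a and Oxtr, only Oxtr had an unadjusted p below 0.05 in a tested comparison with controls. In 6 Aro5 males it was 3.27, 3.52, 3.92, 4.78, 4.91 and 5.41 CPM, and in 9 control males it ranged from 5.49 to 12.0 CPM with a median of 6.51 CPM. The ranges did not overlap, as for 0.217% of 15678 genes that were lower in Aro5 males without overlap. The log2 fold change was -0.79 ± 0.21 (SE), with an edgeR adjusted p of 0.132. In this comparison edgeR called 0.195% of 16393 genes and 0 of the 8 genes tested here, with 1 below an unadjusted p of 0.05. DESeq2 called Oxtr (-0.80, adjusted p = 0.0239), and so did edgeR with pups of the time window alone (-0.89, adjusted p = 0.0431), which left out pups of both groups. Over all genes these fits called 0.616% of 16393 and 4.96% of 16484. With the name form of the libraries as a covariate the difference was -0.24 (edgeR adjusted p = 0.9997). That fit rests on 1 library, the only one among control males with the name form of the treated males, from CONF male N2-2y.

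The thalamus markers were low in 3 of the 6 Aro5 males. Males with 3.27, 3.52 and 3.92 CPM of Oxtr had thalamus sums of 230, 136 and 283 CPM, whereas the other 3 had 587 to 1009 CPM, within the 428 to 1201 CPM of control males. Oxtr of these 3 males (4.78, 4.91 and 5.41 CPM) was also below every control. The neocortex marker sum was 340.3 CPM in 1 Aro5 male and 389.5 to 483 CPM in the other 5, which exceeded every control male (229.9 to 383 CPM). Over all 64 pups, as deviations from group means, Oxtr and the thalamus sum had an r of 0.63 and a rho of 0.67, and r was 0.67 without the 2 pups farthest from the median. It had r of 0.47 and 0.81 in males of the 2 name forms, again without N2-2y, and 0.47 in females. With the summed hippocampus and neocortex markers Oxtr had r of -0.66 and -0.69. The 5 genes most like Oxtr in their deviations from group means, of 16009 compared, were Vgf, Crtac1, Gpr123, Rgs16 and Gsg1l, with r from 0.75 to 0.78. Rgs16 is 1 of the 7 thalamus markers. The part of thalamic and neocortical tissue in the Oxtr difference was not tested.

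In Aro5 females Oxtr was 5.74 to 8.93 CPM against 3.89 to 10.0 CPM in female controls, with a log2 fold change of 0.17 ± 0.17. The sex by treatment interaction of Aro5 was -0.94 ± 0.27 (SE), with an unadjusted p of 0.0012 and an edgeR adjusted p of 0.267. For this interaction edgeR called 0.0984% of 17282 genes and 0 of the 9, with 1 of the 9 at an unadjusted p below 0.05. DESeq2 called 34 genes, and of the 9 it also called 0 and gave 1 such p. In CPF3 males Oxtr was 3.93 to 7.84 CPM (median 5.46), with a log2 fold change of -0.41 ± 0.19 and an edgeR adjusted p of 0.39, and its sign turned to 0.14 with the name form as covariate, a value that rests on the same single control library. In BPA5, Aro0.5, BPA0.5 and CPF1 males the log2 fold changes of Oxtr lay between -0.28 and 0.20, with no unadjusted p below 0.05.

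Avpr1a varied least of the 9 genes. It ranged from 1.50 to 3.89 CPM over all 64 pups, with a coefficient of variation of 23.2%, and group means ran from 2.01 CPM in Aro0.5 to 2.68 CPM in CPF1 males. Its log2 fold changes against controls lay between -0.18 and 0.26, and no tested comparison with controls gave an unadjusted p below 0.05. The genes most like it were Prima1, Gad1, Trh, Ecel1 and Erich3, with r from 0.68 to 0.71. Gad1 encodes a synthetic enzyme of GABA.

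Penk, Pdyn and Tac1 had the widest ranges of the 9 genes in CPM. Over all pups Penk ranged from 16.4 to 383 CPM, Pdyn from 8.33 to 70.3 CPM and Tac1 from 9.11 to 77.8 CPM. CONSC female 9-1x was highest for all 3, at 383, 70.3 and 77.8 CPM, whereas the other 4 females of its group reached 75.9, 19.0 and 25.1 CPM. In CPF3 males 45-1y stood apart in the same way, with 149, 30.6 and 48.2 CPM against at most 63.7, 17.0 and 19.7 CPM in the other 6.

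**Figure D3:**
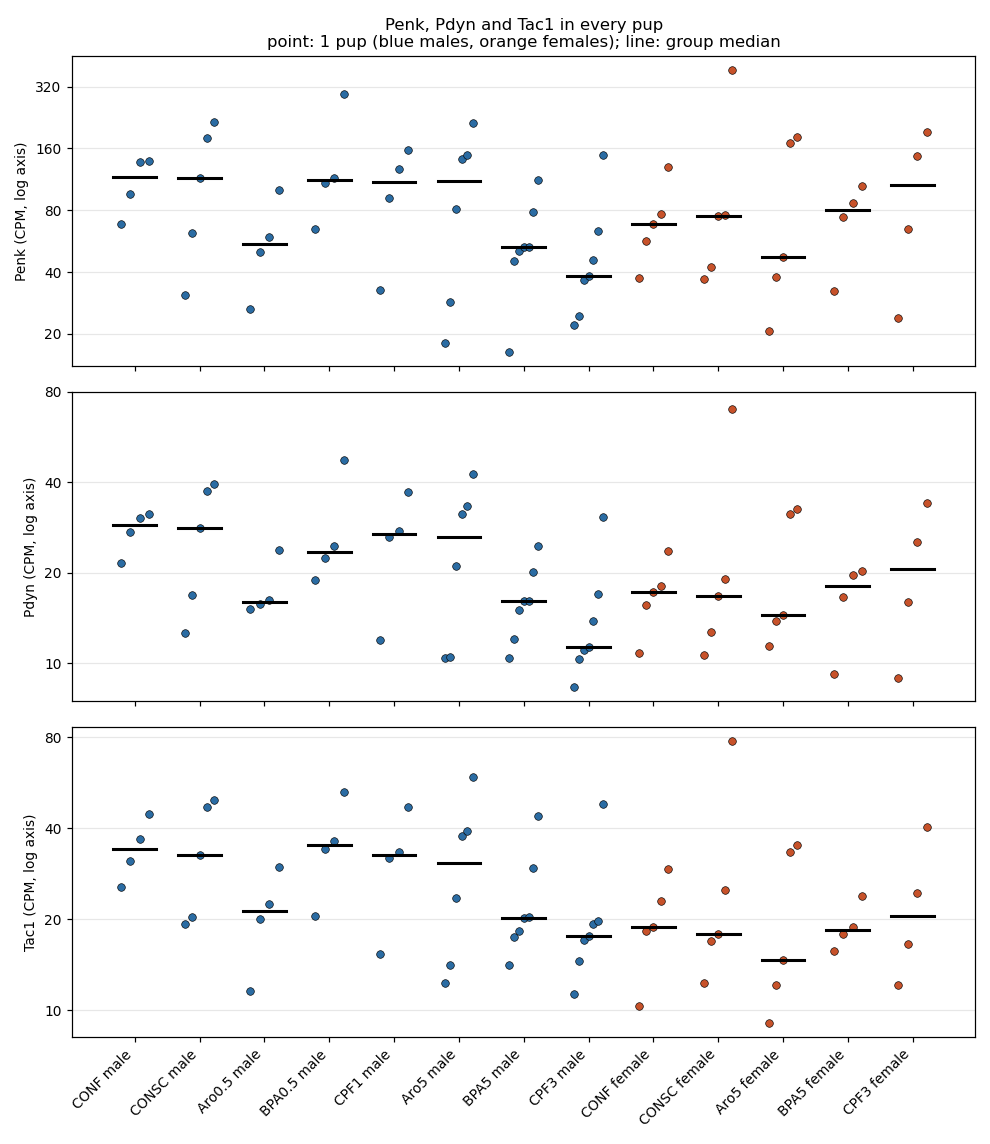
Levels of Penk, Pdyn and Tac1 in CPM (log axes) for each of 64 pups in 13 groups, males in blue and females in orange, with group medians as lines. The spread within groups is wide, and CONSC female 9-1x and CPF3 male 45-1y are the highest pups of their groups for all 3 genes.

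Penk, Pdyn and Tac1 varied together. Across 64 pups, as deviations from group means, Penk correlated with Pdyn at r = 0.96 (rho 0.96) and with Tac1 at r = 0.94 (rho 0.92), and Pdyn with Tac1 at r = 0.93 (rho 0.91). They followed the sum of 6 striatum and amygdala markers, among them Drd1, Drd2 and Adora2a, with r of 0.96 for Penk, 0.94 for Pdyn and 0.92 for Tac1. For Penk this r was 0.96 and 0.95 in males of the 2 name forms without N2-2y, 0.97 in females, and 0.96 without the 2 pups farthest from the median. The genes most like Penk were Adora2a, Rarb, Drd2, Crabp1 and Pdyn, those most like Pdyn were Entpd3, Atp6ap1l, Penk, Lamp5 and Adora2a, and those most like Tac1 were Drd2, Entpd3, Meis1, Rarb and Rgs9, all with r from 0.94 to 0.98. Drd2 and Adora2a encode a dopamine and an adenosine receptor of striatal neurons. Penk also followed the sum of the 6 GABAergic markers, with r of 0.89, and the hypothalamus markers, with r of 0.80. Gad1 had the highest median of the 6 GABAergic markers, 148 CPM. Their sum cannot tell interneurons from other GABAergic neurons. The striatum and amygdala marker sum was 1109 CPM in CONSC female 9-1x and 567 CPM in CPF3 male 45-1y, against a median of 226 CPM over all pups.

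**Figure D4:**
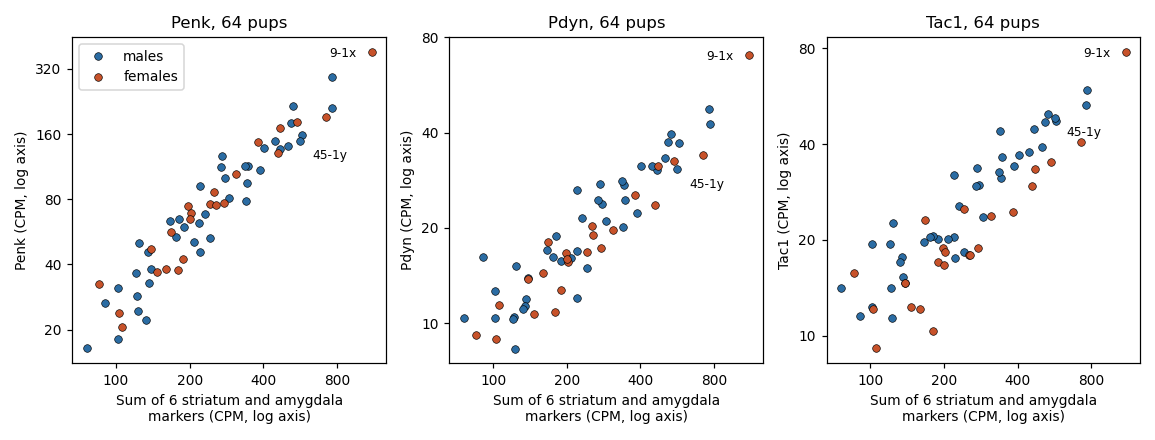
Penk, Pdyn and Tac1 against the sum of 6 striatum and amygdala markers in 64 pups (CPM, log axes), males in blue and females in orange. All 3 genes rise with the marker sum, from 75.8 CPM to 1109 CPM in CONSC female 9-1x.

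In CPF3 males Penk was 22.1 to 149 CPM with a median of 38.2 CPM, against 31.1 to 215 CPM with a median of 114 CPM in control males. Pdyn was 8.33 to 30.6 CPM (median 11.3) against 12.6 to 39.5 CPM (median 28.2), and Tac1 was 11.3 to 48.2 CPM (median 17.6) against 19.4 to 49.7 CPM (median 32.8). Most CPF3 males were low, and the ranges overlapped. The log2 fold changes were -1.08 ± 0.46 for Penk, -0.88 ± 0.29 for Pdyn and -0.68 ± 0.31 for Tac1 (SE, n = 7 and 9), with edgeR adjusted p of 0.36, 0.26 and 0.381.

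Trh was also lower in this group, at 0.921 to 4.19 CPM (median 1.86) against 1.39 to 6.74 CPM (median 3.62), a log2 fold change of -1.04 ± 0.33 (edgeR adjusted p = 0.251). In CPF3 males edgeR called 0.159% of 16393 genes and 0 of the 8 tested here, and 5 of the 8 had an unadjusted p below 0.05, all lower, with the same 0 and 5 from DESeq2. Over all genes 12.6% had such a p. The striatum and amygdala marker sum was 120 to 567 CPM (median 135) in these males and 102 to 531 CPM (median 343) in control males. The GABAergic marker sum was 232 to 412 CPM (median 267) against 279 to 481 CPM (median 379.7), and the hypothalamus sum 3.49 to 14.8 CPM (median 6.81) against 4.28 to 24.1 CPM (median 13.3). The part of these tissues in the differences was not tested.

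In BPA5 males Penk was 16.4 to 113 CPM (median 53.2) and Pdyn 10.4 to 24.5 CPM (median 16.1). The log2 fold changes were -0.97 ± 0.46 and -0.73 ± 0.29 (SE, n = 7 and 9), with edgeR adjusted p of 0.538 and 0.499. edgeR called 0.189% of 16393 genes and 0 of 8 here, with 2 of the 8 at an unadjusted p below 0.05 in both edgeR and DESeq2, against 9.1% of all genes in edgeR. The marker sum had a median of 221 CPM in this group. In Aro5 males Penk spread from 18.2 to 212 CPM, and the log2 fold changes of Penk, Pdyn and Tac1 lay between -0.13 and -0.12.

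**Figure D5:**
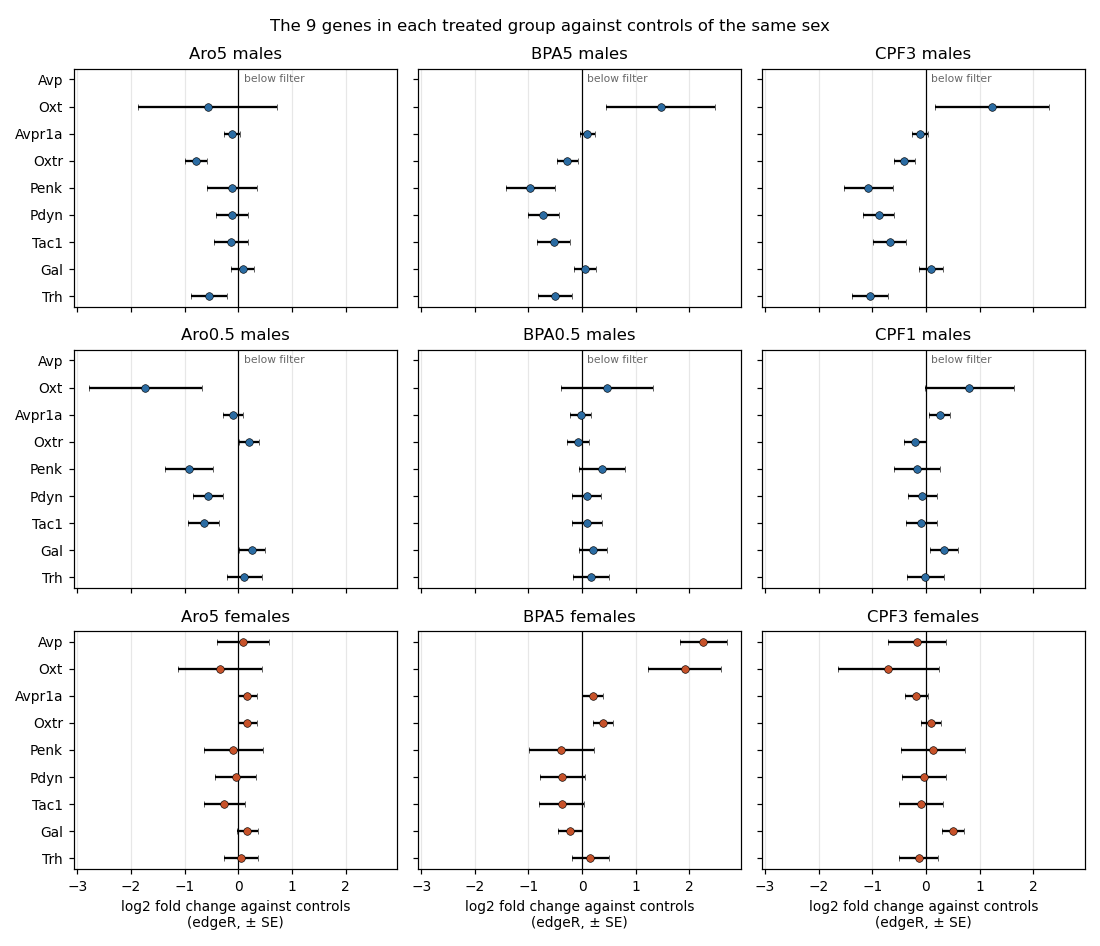
Log2 fold changes (edgeR, points, with SE as bars) of the 9 genes in 9 treated groups against controls of the same sex, which the groups share. Genes removed by the filter on low counts are written as below filter. In BPA5 females Avp and Oxt are at 2.25 and 1.91, and in CPF3 males Penk, Pdyn, Tac1 and Trh lie between -1.08 and -0.68. The genes were chosen on the BPA5 females, so the bars of that group are no test.

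In the low-dose males edgeR called 0.124% of 16139 genes in Aro0.5, 0.0434% in BPA0.5 and 0% in CPF1, where DESeq2 called 269, 39 and 0 genes. Both tools called 0 of the 8 genes tested here in each group. Tac1 in Aro0.5 males, at 11.6, 20.1, 22.6 and 29.8 CPM, gave a log2 fold change of -0.65 ± 0.29 (edgeR adjusted p = 0.238) and was the only gene of the 8 with an unadjusted p below 0.05 in these 3 groups, by either tool. Over all genes 18.5% had such a p in Aro0.5 males in edgeR. Its values overlapped those of controls. The striatum and amygdala sum of Aro0.5 males was 90.5 to 278 CPM, below the control median of 343 CPM in all 4 pups. BPA0.5 male 73-4y had the highest Penk of all males, at 293 CPM, with a marker sum of 762 CPM.

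In females edgeR called 0% of 16992 genes for Aro5 and for CPF3, where DESeq2 called 1 and 3, and both tools called 0 of the 9. The share depended on the control libraries. With female controls of name form A alone, edgeR called 119 of 16938 genes for Aro5, 43 for BPA5 and 110 for CPF3, and with those of form B 0 of 16604 in each. Gal was the only gene with an unadjusted p below 0.05, in CPF3 females by both tools, at 0.946, 2.42, 2.54 and 2.81 CPM against 1.14 to 1.94 CPM in controls. Of the 4 pups, 3 exceeded every control and 1 was below them all. The log2 fold change was 0.50 ± 0.21 (SE, edgeR adjusted p = 0.509), and 8.79% of all genes had an unadjusted p below 0.05 in this comparison. Gal did not follow the other peptides, with r between -0.02 and 0.22 to Penk, Pdyn, Tac1, Trh, Avp and Oxt. The genes most like it, Ano7, Pllp, Pstpip1, Dnajb12 and Cyp46a1, reached r of only 0.49 to 0.55.

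Trh varied with GABAergic markers. Its r was 0.85 with the sum of the GABAergic markers, which include Gad1, 0.76 with the hypothalamus markers and 0.66 with the striatum and amygdala markers. Among the genes most like it were Gad1, Ecel1, Pde1b and Ccdc33, with r from 0.82 to 0.86. CONF male N4-7y had 6.74 CPM while the other 3 CONF males had 3.54 to 3.62 CPM, and this pup was also the control male with most Avp and Oxt.

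Pdyn, Tac1 and Trh were higher in the male of all 7 control litters, by 0.74 ± 0.39, 0.82 ± 0.36 and 0.87 ± 0.41 on the scale of log2(CPM + 0.1) (exact permutation p = 0.0156 each, unadjusted, the smallest possible). In the same 7 litters, 8.75% of 16009 genes were higher in the male of every litter and 9.98% in the female of every litter. Penk was higher in the male in 5 of 7 (exact permutation p = 0.0938, unadjusted). In the 8 Aro5 and CPF3 litters Pdyn and Tac1 were each higher in the male of 4 litters and in the female of 4. Trh was higher in the female of 5 of these litters and in the male of 3. Over the 15 litters without BPA5 the male was higher in 11 for Pdyn and in 10 for Trh (exact permutation p = 0.272 and 0.295, unadjusted). The striatum and amygdala sum had a median of 343 CPM in control males and 223 CPM in control females, and its part was not tested.

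For BPA5, whose interaction with sex includes the females used for the choice of genes, the values are a description. The interaction was -0.32 for Avp, -0.45 for Oxt and -0.67 for Oxtr, and 0.0405% of 17282 genes passed in edgeR. The interaction of CPF3 with sex was 2.88 ± 1.30 for Avp (unadjusted p = 0.0319, edgeR adjusted p = 0.872) and -0.26 without CPF3 male 36-3y, a comparison added after this pup was seen. For Oxt it was 1.92 ± 1.52 (edgeR adjusted p = 0.895) and -0.60 without the same male. The interaction of Aro5 was -0.96 ± 1.50 for Avp and -0.22 ± 1.53 for Oxt (SE, edgeR adjusted p = 0.938 and 0.993). Avp passed the filter on low counts in the interaction fit of both sexes, which includes the BPA5 females. The same filter removed Avp from the comparisons among males. For the CPF3 interaction edgeR called 0.0463% of 17282 genes and 0 of the 9. One of the 9 had an unadjusted p below 0.05 in edgeR and 2 in DESeq2, which called 16 genes but 0 of the 9. Injection and feeding controls differed in 0.013% of 15387 genes in males and 0% of 16618 in females in edgeR. None of the 7 and 8 genes tested here was called or had an unadjusted p below 0.05 in either sex, by edgeR or DESeq2. Avp differed by -0.76 between CONSC and CONF males in the permutation test (exact permutation p = 0.365, n = 5 and 4) and by -0.24 ± 0.39 in females (edgeR adjusted p = 0.913). For Oxt, which the filter removed there, the permutation difference of CONSC from CONF was 0.05 in males and -1.04 in females (exact permutation p = 1.0 and 0.254, n = 5 and 4, and 5 and 5).

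Among the 86 further genes of peptide signalling, edgeR called 0 in the 8 comparisons with controls other than BPA5 females. DESeq2 called Apln in BPA5 males, Mchr1 in Aro0.5 males and 0 in the other 6. In the high-dose males 65 were tested, and 9, 6 and 9 had an unadjusted p below 0.05 in Aro5, BPA5 and CPF3, that is 13.8%, 9.23% and 13.8% against 11.8%, 9.1% and 12.6% of all genes. The smallest p in these groups belonged to the receptors Npy1r (0.55 ± 0.17) and Cckar (-0.43 ± 0.14) in Aro5, to the precursors Apln (-0.43 ± 0.11) and Tac3 (0.57 ± 0.21) in BPA5, and to Scg5 (-0.40 ± 0.12), a chaperone of a prohormone convertase, and Cck (0.59 ± 0.20) in CPF3, as log2 fold changes with SE. Their edgeR adjusted p lay between 0.109 and 0.465.

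In low-dose males 61 of the 86 were tested, and 10, 9 and 1 had an unadjusted p below 0.05 in Aro0.5, BPA0.5 and CPF1, that is 16.4%, 14.8% and 1.64% against 18.5%, 8.58% and 2.0% of all genes. Mchr1 (0.71 ± 0.19) and Vipr2 (1.02 ± 0.30) in Aro0.5, Prep (-0.25 ± 0.07) and Crh (-0.59 ± 0.19) in BPA0.5, and Pmch (2.28 ± 0.76) and Mme (-0.29 ± 0.16) in CPF1 had the smallest p, with edgeR adjusted p from 0.116 to 0.997. Pmch encodes the precursor of the hypothalamic melanin-concentrating hormone. It was at 3.69 ± 3.97 CPM (SD, n = 4) in CPF1 males, the low-dose group with the highest mean of Avp. Control males had 0.772 ± 0.662 CPM (n = 9). Without CPF1 male 60-6y the log2 fold change of Pmch in CPF1 males was 1.65 ± 0.86 (SE). In females 70 were tested, and 2 had an unadjusted p below 0.05 in Aro5 and 2 in CPF3, that is 2.86% in each against 3.23% and 8.79% of all genes. Pmch (-2.46 ± 1.17) and Ntsr2 (0.36 ± 0.15) in Aro5 and Ece1 (0.18 ± 0.07) and Grpr (-0.82 ± 0.37) in CPF3 had the smallest p, with edgeR adjusted p from 0.479 to 0.999. The value of Pmch in Aro5 females rests on CONF female N2-4x, with 20.7 CPM, and it was 0.10 ± 0.64 without this pup (edgeR adjusted p = 0.9996). The other 9 control females had 0.0950 to 1.26 CPM of Pmch and the 5 Aro5 females 0.307 to 0.585 CPM.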

How the data were processed

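RNA-seq libraries (66, from 64 pups) were analysed. Per the labels and the study's methods, the authors aligned reads to Rnor_6.0 with STAR and counted reads per gene with featureCounts, and the deposited values are raw counts per gene. Versions, strand setting and the handling of multiply matching reads are not given in the sources used here, so reads of overlapping antisense genes may not be told apart. Counts of the 2 pups with 2 libraries, 1 of each name form, were summed. Groups came from the labels. Litter was used as a block in an alternative. Nothing shows that pups of 1 group are independent beyond their litter, so p-values measure the spread between these pups. Aro5 males 120-1y and 120-2y were littermates, as were Aro5 females 115-13x and 115-7x, and each was counted as a pup of its group. All 9 genes and the further gene and marker lists were chosen with earlier results of these data known. All 9 genes were examined in each comparison. Fold changes were printed for Avp and Oxt, as permutation differences where the filter removed them, and for others with an unadjusted p below 0.05. Of the 86 further genes, those called between control males and females were printed. For treated groups against controls, BPA5 females left out, the 2 with the smallest p were printed. Those of the interactions and of CONSC against CONF were not. The 5 genes most like each well-counted gene were named, except for 1 gene that is not reported here.

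Fits used edgeR 4.0.16 (TMM, filterByExpr, quasi-likelihood F test, Benjamini-Hochberg over all genes tested, threshold 0.05) in R 4.3.3. Males at the high doses, males at the low doses, females, controls of each sex, all controls, and both sexes at the high doses were fitted separately. Each SE was derived from the log2 fold change and its F statistic. DESeq2 1.42.0, limma 3.58.1 (voom) and other filters, scalings and pups served as alternatives. The scripts were tested on simulated data. Permutation tests and correlations (CPM, prior count 2) used Python 3.11.15 and scipy 1.17.1. Littermates were identified from the litter in the pup names.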

Additional observations from a re-analysis of the deposited data

Results flagged for a closer look

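Each of the 9 genes was examined for a pup far from the rest of its group, by Dixon's ratio on CPM in 12 groups, 108 combinations in all. BPA5 females, whose values chose the genes, were left out. For normally distributed values chance marks about 1 in 20 groups. Here 21 combinations were marked, 7 of them for Avp or Oxt. These counts cannot be compared with that rate, because values of Avp and Oxt rest on few counts and Penk, Pdyn and Tac1 varied together. No cause was tested.

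Avp and Oxt stood apart in the same 3 males. CONF male N4-7y had 1.14 CPM of Avp and 0.894 of Oxt, BPA5 male 80-1y 3.57 and 3.80, and CPF3 male 36-3y 8.97 and 3.92. Aro5 female 116-1x stood apart for Oxt (0.942 CPM). CONF male N4-7y also had the highest Trh of its group (6.74 CPM).

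CONSC female 9-1x was marked for Penk (383.0 CPM), Pdyn (70.3), Tac1 (77.8) and Trh (7.49), and CPF3 male 45-1y for Penk (149.0), Pdyn (30.6), Tac1 (48.2) and Trh (4.19). Aro0.5 male 105-5y was marked for Pdyn (23.7 CPM).

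The receptors and Gal gave single marks. Avpr1a was low in CONF female N1-8x (1.57 CPM) and high in CPF3 female 38-5x (2.54 CPM), Oxtr was high in CPF3 female 45-6x (8.78 CPM), and Gal was low in CPF1 male 60-6y (1.44 CPM). No interaction of Aro5 or CPF3 with sex passed the test for any of the 9 genes.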

How the results depend on the processing

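Of the counts of genes called, 0 in each tested comparison, 3 moved to 1. These were Aro5 males with DESeq2 and within the time window (Oxtr, -0.80 and -0.89), and male against female controls with libraries of 1 pup kept separate (Gal, -0.46). Leaving out pups in turn gave 0 to 0 calls in the comparisons with controls and between controls of 1 sex, and in the interactions without male 36-3y. Litter as a replicate block left the calls at 0, with -0.46 for Gal between control males and females, -0.90 for Oxtr in the Aro5 interaction and 1.12 for Avp in the CPF3 interaction. With the library name form as covariate, which rests on 1 control male library, Oxtr in CPF3 males turned to 0.14.

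The permutation and littermate tests and the refits that combine no filter with a left-out pup were added after seeing the data. Signs of Avp and Oxt depended on single pups and on the controls, on few counts. Avp turned to -0.022 in Aro5 females with feeding controls alone, -0.21 with controls of name form A and 0.26 in CPF3 females with form B. Oxt turned to 0.15 in Aro5 females with form B and 0.58 in CPF3 females with injection controls alone. Refits without 1 pup gave Avp -0.27 to 0.23 and Oxt -1.05 to 0.29 in Aro5 females, Oxt -1.65 to 0.0027 in CPF3 females, -0.17 to 0.89 in BPA0.5 and -0.36 to 1.26 in CPF1 males, and Avp -0.48 to 0.023 for CONSC against CONF females. Without filter and without the highest pup, Oxt was -0.60 in BPA5, -1.28 in CPF3 and -0.37 in CPF1 males. The CPF3 interaction without male 36-3y was -0.26 for Avp and -0.60 for Oxt. A pseudocount of 0.5 gave -0.019 for Avp in Aro0.5 males. Avp in BPA5 females was 1.06 within the time window. With a prior count of 0.5, r was 0.70 for Avp and Oxt and 0.60 for Avp and hypothalamus markers. The causes were not tested. At a median of 5 counts, small changes of Avp were not detectable. TMM scaling moved no group mean by more than its SD. An alternative of at least 10 counts in every pup gave no value for Avp or Oxt.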
